A study of Mus musculus with 12 samples.

Results

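The genes described here set the 3 arrays of mouse pancreatic tumor cells apart from all 9 other arrays of the series. A gene entered the higher set if its lowest tumor array lay at least 1 log2 unit, a doubling of signal, above the highest of the 9 other arrays. It entered the lower set if its highest tumor array lay at least 1 below the lowest of them. The difference between those 2 arrays is called the gap. Of 22180 genes measured, 101 were in the higher set (0.455%) and 210 in the lower set (0.947%), 311 genes in all. Since the tumor values chose these genes, their tumor values are given as a description. All 101 and all 210 also passed the fitted comparison of tumor cells with each other group, which follows from how they were chosen and supports nothing. List counts below give the members first and then how many of the list's other genes passed that comparison (adjusted p under 0.05 and a log2 difference of at least 1 against each group).

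The 3 tumor samples were low-passage cells grown in standard medium. The 3 ADM samples, for acinar-to-ductal metaplasia, were acinar cells after 7 days of 3D culture in collagen, stimulated with 50 ng/ml of TGF-alpha, which activates the EGF receptor. The 3 embryonic and the 3 adult samples were acinar cells taken fresh after the tissue had been digested. All 4 groups carry C57Bl6/J wildtype as their strain, tumor cells included, and the labels give no tumor allele, cell line or age. The descriptions of the tumor samples share the stem 921 with a number from 1 to 3, and nothing says that these came from separate tumors, animals or cultures. Here p-values therefore measure only the spread between the samples, which may be technical.

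Acinar cells make and secrete digestive enzymes under a small set of transcription factors, and in metaplasia they lower that program and take on features of duct cells. Pancreatic carcinoma cells usually carry simple keratins and form epithelium through adherens junctions, tight junctions and desmosomes. Some lose those junctions and take on mesenchymal features, a switch in which repressors bind E-box sequences at epithelial promoters. Freshly digested pancreas and short-term explants also hold blood vessel, stromal, immune and islet cells, which a passaged cell culture need not hold. In such bulk RNA, fewer cells of a type and less RNA per cell cannot be told apart.

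Levels are log2 signal as deposited. A background level of 3.62 was taken from 1390 genes of olfactory and vomeronasal receptors, as the 95th percentile of their means per group. Where the dimmer group lay at or under it, the fold is a lower bound against that level, written "at least". Between 12070 and 12167 genes lay above it on the tumor arrays, and between 12462 and 13670 on the others. Tumor replicate 1 stood apart from replicates 2 and 3, with correlations of 0.968 and 0.969 over all genes, against 0.987 between replicates 2 and 3, and counts that change most without it are given both ways.

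The labelled tumor cells had keratins and little acinar enzyme signal. Krt19, a keratin of duct cells, was at 10.32, 10.48 and 10.31 on the tumor arrays, against 10.01, 10.32 and 10.04 in ADM and at most 7.96 on the embryonic arrays. It was 2.55 ± 0.145 higher in tumor than in embryonic cells (log2 difference ± SE, adjusted p = 2.28e-08) and 3.45 ± 0.145 higher than in adult cells (adjusted p = 1.25e-09). The difference from ADM was 0.25 ± 0.145 (adjusted p = 0.341), limma with Benjamini-Hochberg adjustment over all genes, as for every adjusted p below. Cdh1, the E-cadherin of adherens junctions, was at 10.48, 9.78 and 9.92 on the tumor arrays, inside the range of the 9 other arrays together. All tumor arrays lay below the ADM arrays, at 10.93, 11.15 and 11.07. The difference from ADM was -0.99 ± 0.18 (adjusted p = 0.00189), just short of the log2 difference of 1 needed for a call. Vim, the intermediate filament of mesenchymal cells, was at 12.08, 12.06 and 12.09, above every other array but by less than the gap of 1. Epcam, an epithelial surface protein used as a marker of carcinoma cells, was near background and is described with the lower set.

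**Figure D1:**
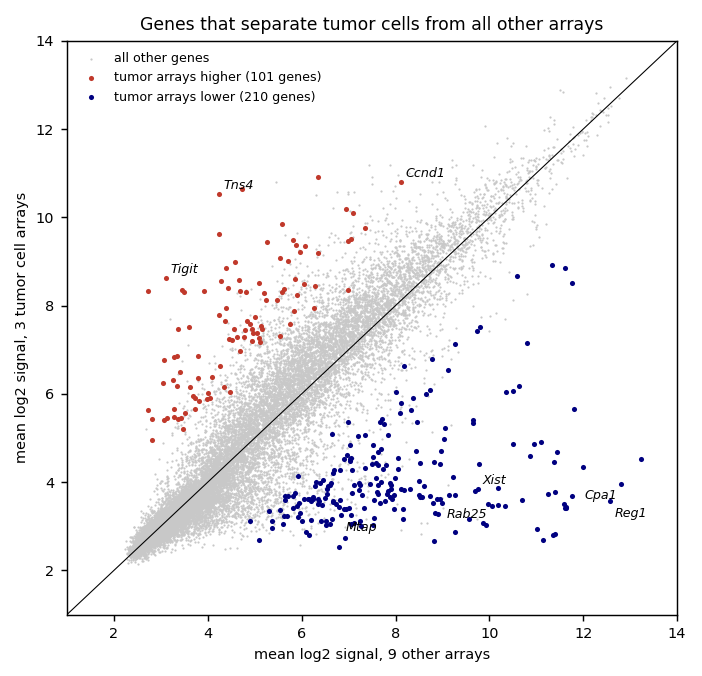
Each point is 1 gene, with its mean log2 signal on the 3 tumor arrays (vertical axis) against its mean on the 9 other arrays (horizontal axis). The line marks equal means, the 101 genes of the higher set are red and the 210 of the lower set blue, and the lower set reaches further from the line.

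The higher set was led by receptors known from leukocytes. Tigit, an inhibitory receptor of T cells and natural killer cells, had the widest gap, 4.60. It was at 8.96, 8.31 and 8.61 on the tumor arrays, against 3.42, 3.61 and 3.71 in ADM, 3.04 or less in embryonic cells and 3.36 or less in adult cells. All tumor arrays thus lay far above 9 arrays at or near background, and the fold was at least 32.1 against each group. Il5ra, the specific chain of an interleukin receptor of eosinophils, was at 7.25, 9.08 and 8.66 in tumor cells and no higher than 3.33 elsewhere. Ptpn22, a phosphatase that restrains lymphocyte receptor signalling, was at 6.71, 9.0 and 9.32, against at most 3.69. Both were lowest on tumor replicate 1 and still stood well clear of the other arrays. Il18rap, an accessory chain of another interleukin receptor, was at 6.73, 7.00 and 6.81 on the tumor arrays, with 4.09 the highest other value. In all, 10 genes of leukocyte receptors and signalling were in the higher set, among them the paired receptors Pilra and Pilrb1. Their median level was 7.18 in tumor cells, against 3.64 in ADM, 3.36 in embryonic and 3.40 in adult cells.

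Next to them stood 2 serine proteases that are stored in the granules of basophils and mucosal mast cells in mice. Mcpt8, the basophil protease, was at 9.40, 9.90 and 9.58 in tumor cells, against 5.54, 5.04 and 5.14 in ADM, 3.84 or less in embryonic cells and 3.89 or less in adult cells. Mcpt2, of mucosal mast cells, was at 8.10, 8.84 and 7.95 in tumor cells, against 5.24, 4.80 and 4.40 in ADM and 3.11 or less on the other 6 arrays. ADM cultures lay between tumor cells and the near-background acinar samples for both genes. For both genes the highest array outside the tumor group, which the gap is taken from, was an ADM array. ADM exceeded adult cells by 1.47 ± 0.182 for Mcpt8 (adjusted p = 3.29e-05) and by 2.05 ± 0.255 for Mcpt2 (adjusted p = 3.33e-05).

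Of 21 measured proteases of cytotoxic lymphocytes and mast cells, 8 had a mean above background in tumor cells. Besides the members Mcpt8 and Mcpt2, 1 of the other 19, Mcpt1, passed the test against each of the other groups, upward. The same call held for 2.11% of all genes upward and 1.87% downward. A probe set annotated to 2 granzyme genes, and assigned to neither, was at 7.11, 7.10 and 6.35 on the tumor arrays, against 4.24 or less elsewhere. The mast cell genes Cpa3, Cma1 and Tpsb2, looked at after their values were seen, were at no more than 3.22 on the tumor arrays and at no less than 5.44 on the embryonic arrays. Of 24 immune cell markers, 7 had a mean above background in tumor cells, 3 were in the lower set and 1 of the other 21, Cd14, passed the test upward. The common leukocyte antigen Ptprc was at 2.95, 2.87 and 3.05 on the tumor arrays, and Cd3e of T cells at 3.45, 3.80 and 3.76. The list's summed linear signal was 943 to 1280 in tumor cells, against 1130 to 1810 in ADM, 4150 to 6070 in embryonic and 618 to 658 in adult cells. Cd14 alone made up most of that sum on each tumor array, so the sum says little about the list's other markers there.

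**Figure D2:**
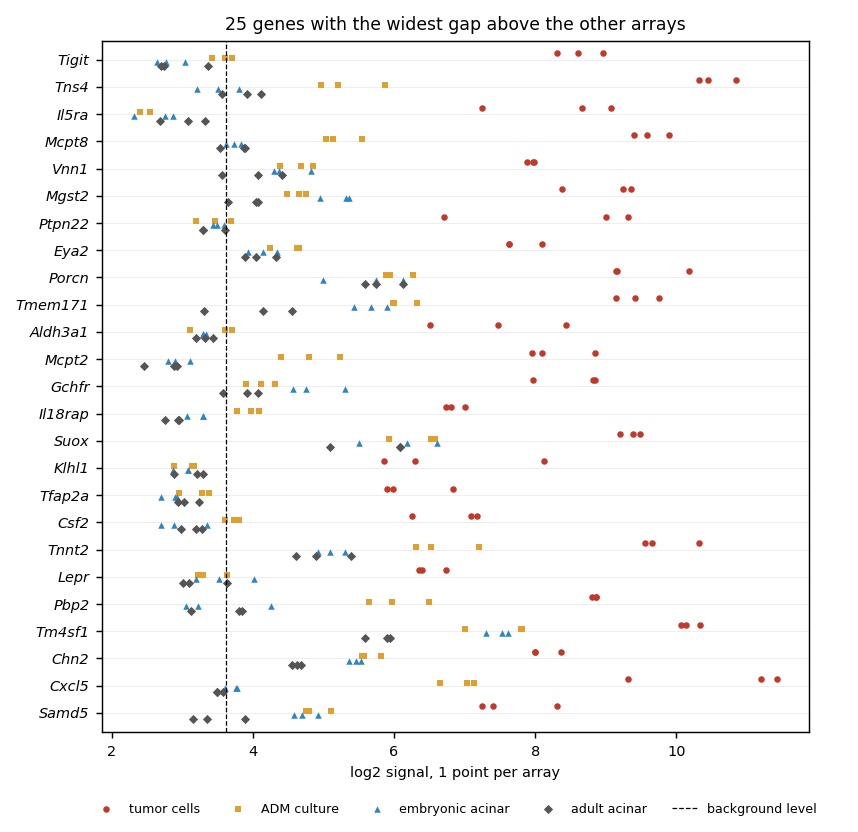
Log2 signal on each of the 12 arrays for the 25 named genes with the widest gap above the other arrays, in order of gap; symbols stand for the groups and the dashed line for the background level of 3.62. Tumor arrays lie to the right of all others in every line, and for Tigit, Il5ra and Ptpn22 the other arrays lie near the background level.

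Of 44 chemokines and cytokines measured, 3 were in the higher set and 1 in the lower set, and of the other 40 a further 3 passed the test upward and 1 downward. Without tumor replicate 1, 7 met the gap rule upward. Cxcl5, which attracts neutrophils, was at 9.31, 11.20 and 11.42 on the tumor arrays, against 6.65, 7.04 and 7.14 in ADM, and at 3.77 or less in embryonic and adult cells. ADM thus lay between them, 3.42 ± 0.400 above adult cells (adjusted p = 2e-05). Csf2, the growth factor of granulocytes and macrophages, was at 7.18, 6.26 and 7.09 in tumor cells and at most 3.81 elsewhere. A further Csf2 probe set put the tumor mean at 4.65, against 3.85 in ADM, 3.27 in embryonic and 3.95 in adult cells, the same direction with a gap of 0.13. Ccl20, which attracts lymphocytes and dendritic cells, was at 6.44, 6.30 and 6.38, against 4.51 or less. The chemokine in the lower set was Cxcl12, a stromal ligand that retains leukocytes, at 4.04, 3.99 and 4.05 in tumor cells, against no less than 7.43 on any other array.

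Among 7 transcription and chromatin factors of the higher set, Eya2, a transcriptional coactivator and phosphatase of organ development, had the widest gap. It was at 8.10, 7.63 and 7.63 in tumor cells, against 4.65, 4.25 and 4.62 in ADM, 4.35 or less in embryonic and 4.33 or less in adult cells. Tfap2a, a factor of ectoderm and neural crest, was at 6.83, 5.98 and 5.90, against 3.38 or less on all other arrays. Gata5, a factor of gut endoderm and heart, was at 5.71, 6.09 and 5.70, against 4.02 or less. The 9 other arrays of these 3 genes lay within a narrow band, and none of the 3 passed the test in any contrast among the other groups. Twist1, which drives epithelial-to-mesenchymal transition, was at 7.81, 7.29 and 7.27 in tumor cells, against 6.01, 4.87 and 5.56 in ADM, 4.56 or less in embryonic and 4.89 or less in adult cells. It exceeded adult cells in ADM too, by 1.05 ± 0.300 (adjusted p = 0.015). Zeb1, another factor of that transition, was at 6.20, 5.64 and 5.73 in tumor cells and overlapped the embryonic arrays, at 6.08, 5.46 and 5.95. Of 16 mesenchymal and transition genes measured, Twist1 was in the higher and Sparc in the lower set. Of the other 14, 0 passed the test either way. Against ADM, 2 of the 16 were called higher and 6 lower, against embryonic cells 4 and 6, and against adult cells 9 and 1. Over all 22180 genes those counts were 727 and 1125, 1448 and 1731, and 3108 and 1321. The mesenchymal marker Fn1, at 10.89, 9.17 and 10.15 in tumor cells, overlapped ADM, and Cdh2 lay above all others with a gap of 0.44.

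Genes of cell division were higher in tumor cells, but how many met the gap rule rested on tumor replicate 1. Ccnd1, the cyclin that carries growth factor signals into the cell cycle, was at 10.43, 10.89 and 11.09 on the tumor arrays, against 8.95, 9.10 and 9.11 in ADM, 8.58, 8.67 and 8.76 in embryonic, and 6.95 or less in adult cells. The replication genes Mcm2, a helicase subunit, Gins1, its partner at the fork, and Cdt1, which loads the helicase, had gaps of 1.09, 1.11 and 1.06. Ezh2, the histone methyltransferase of polycomb repressive complex, had a gap of 1.02 and was at 9.18, 9.56 and 9.62 in tumor cells, against 8.16 or less. For all 5 the order of group means had tumor cells highest and adult cells lowest, with ADM and embryonic cells between them. Both ADM and embryonic cells passed the test upward against adult cells for each of them.

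Of 26 replication genes measured, 3 were in the higher set, and of the other 23 a further 12 passed the test upward against every other group. Of 27 mitosis genes, 0 were in the higher set, while 19 passed that test upward and 0 downward. Taken by contrast, 26 of the 27 mitosis genes were called higher in tumor cells than in ADM, where 3.28% of all genes were. Against embryonic cells 20 were called (6.53% of all genes), and against adult cells 27 (14.0%). Their median log2 difference was 1.74 from ADM, 1.19 from embryonic and 4.33 from adult cells, with 0.00 over all genes in each contrast, once group means under background were raised to it. Without tumor replicate 1, a setting added after seeing the data, 23 of the 27 met the gap rule on the remaining 2 tumor arrays, and 25 passed the test, as did 16 and 19 of the 26 replication genes. Over all 22180 genes that setting took the higher set to 395 and the calls upward to 730, against 101 and 468 with all arrays. Mki67, the proliferation antigen, was at 7.98, 8.64 and 9.27 in tumor cells, against 7.40, 6.47 and 7.28 in ADM and 7.95, 8.31 and 7.93 in embryonic cells. Replicate 1 thus lay within the embryonic range, and the tumor minus embryonic difference was 0.57 ± 0.315 (adjusted p = 0.229).

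A group of 7 genes handles oxidants, drugs and cofactors. Vnn1, a pantetheinase of the cell surface, was at 7.98, 7.88 and 7.97 on the tumor arrays, against 4.85, 4.38 and 4.68 in ADM, 4.82 or less in embryonic and 4.42 or less in adult cells. Mgst2, a membrane glutathione transferase, was at 9.35, 9.25 and 8.38, against 5.36 or less. Aldh3a1, which oxidises aldehydes, was at 6.51, 8.44 and 7.48, against 3.71 or less. Abcb1a, a drug efflux pump, was at 8.03, 6.28 and 6.24, against 4.36 or less, and its paralog Abcb1b missed the set by 0.01 with a gap of 0.99. Of 36 genes of NRF2, glutathione and detoxification, 3 were in the higher set and 1 in the lower set, and of the other 32 a further 2 passed the test upward and 4 downward. Without tumor replicate 1 the list had 4 genes in each set. Aldh1a1, which makes retinoic acid, went the other way, at 6.23, 4.69 and 5.07 in tumor cells, against no less than 8.92 elsewhere.

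Adhesion and cytoskeleton genes held 11 places. Tns4, a tensin of focal adhesions, had the second-widest gap, 4.45. It was at 10.84, 10.32 and 10.45 in tumor cells, against 5.21, 4.97 and 5.87 in ADM, 3.81 or less in embryonic and 4.12 or less in adult cells, and was 36.4-fold higher than in ADM. Tnnt2, a troponin of heart muscle, was at 10.32, 9.65 and 9.56, against 6.31, 6.52 and 7.21 in ADM and 5.39 or less in the fresh cells. Tm4sf1, a surface protein of migrating cells, was at 10.34, 10.13 and 10.07, against at most 7.81. ADM exceeded adult cells for each of these 3, by 1.48 ± 0.247 for Tns4 (adjusted p = 0.000384), 1.71 ± 0.272 for Tnnt2 (adjusted p = 0.000262) and 1.73 ± 0.211 for Tm4sf1 (adjusted p = 3.01e-05).

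Further members belonged to the groups of membrane receptors and signalling (11 genes) and of metabolism and solute carriers (8 genes), or to none. Porcn, which attaches lipid to Wnt ligands, was at 10.18, 9.15 and 9.16 on the tumor arrays, against 4.99 to 6.27 on the others. Lepr, the leptin receptor, was at 6.73, 6.35 and 6.39, against 4.02 or less. Plac8, a small cysteine-rich protein, was at 10.73, 11.18 and 10.84, against 7.34, 6.93 and 7.05 in ADM, 7.62, 7.48 and 8.87 in embryonic and 4.36 or less in adult cells. Hk2, the hexokinase of growing cells, and Slc16a1, a lactate transporter, were the members among 25 glycolysis and hypoxia genes, with gaps of 1.08 and 1.43, and of the other 23 a further 2 passed the test downward and 0 upward. Without tumor replicate 1, 3 of the list met the rule downward. Klhl1, a neuronal actin-binding protein, was at 8.13, 6.30 and 5.86, with every other array at background, so its level differed more among the tumor arrays than among the others.

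Acinar enzymes gave the widest gaps of the lower set. Of 26 measured, 20 were in the set, and of the other 6 a further 3 passed the test downward against each group. In tumor cells 11 of the 26 had a mean above background, and their summed linear signal was 356 to 421, against 28400 to 46500 in ADM, 89900 to 121000 in embryonic and 152000 to 154000 in adult cells. Reg1, a secreted lectin of acinar cells, was at 3.95, 2.96 and 3.79 on the tumor arrays, against 12.55, 12.36 and 12.55 in ADM, 12.17, 11.83 and 12.74 in embryonic, and 12.98, 12.92 and 12.96 in adult cells, at least 466-fold lower than in ADM. Cpa1, a carboxypeptidase zymogen, was at 4.36, 3.71 and 3.81, against 12.19 or more on every other array. Both thus stayed near the top of the signal range in ADM after 7 days of culture. Cel, a bile salt-activated lipase, was at 3.62, 3.71 and 3.18 in tumor cells, against 9.66, 9.10 and 9.18 in ADM, 12.48, 12.40 and 12.58 in embryonic, and 12.97, 12.95 and 12.93 in adult cells. For Cel, ADM thus lay between the tumor and the fresh acinar arrays, 3.64 ± 0.180 below adult cells on the log2 scale (adjusted p = 1.12e-08). Klk1, a kallikrein, was at 2.38, 2.88 and 3.19 in tumor cells and spread from 7.10 to 10.82 over the ADM arrays. Trypsin genes and Reg genes form separate clusters on chromosome 6. In the trypsin cluster 6 members fell within 10 measured genes in a row, and in the Reg cluster 3 fell within 5. Close paralogs can share probe signal, and this was not tested.

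Of 9 transcription factors of acinar cells measured, 4 were in the lower set and 0 of the other 5 passed the test, and 7 of the 9 had a tumor mean above background. Nr5a2, a nuclear receptor that sustains acinar identity, was at 3.84, 3.11 and 3.89 in tumor cells, against 8.11, 8.08 and 8.02 in ADM, 8.66, 9.38 and 8.73 in embryonic, and 9.71, 9.46 and 9.78 in adult cells. Ptf1a, the master factor of acinar genes, was at 3.68, 3.41 and 3.70, against 6.78, 5.75 and 5.21 in ADM, 8.04, 8.34 and 7.02 in embryonic, and 8.92, 8.80 and 8.92 in adult cells. The ADM arrays of both genes lay between the tumor and the fresh acinar arrays without overlap. A further Ptf1a probe set gave group means of 3.30 in tumor, 3.36 in ADM, 4.17 in embryonic and 4.53 in adult cells, with no gap. Cckar, the cholecystokinin receptor that triggers secretion, was at 3.72, 3.97 and 3.07, against 8.57 or more. Xbp1, which builds the secretory apparatus, was at 7.75, 7.10 and 6.56 in tumor cells, against 8.88 or more, so it stayed well above background.

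**Figure D3:**
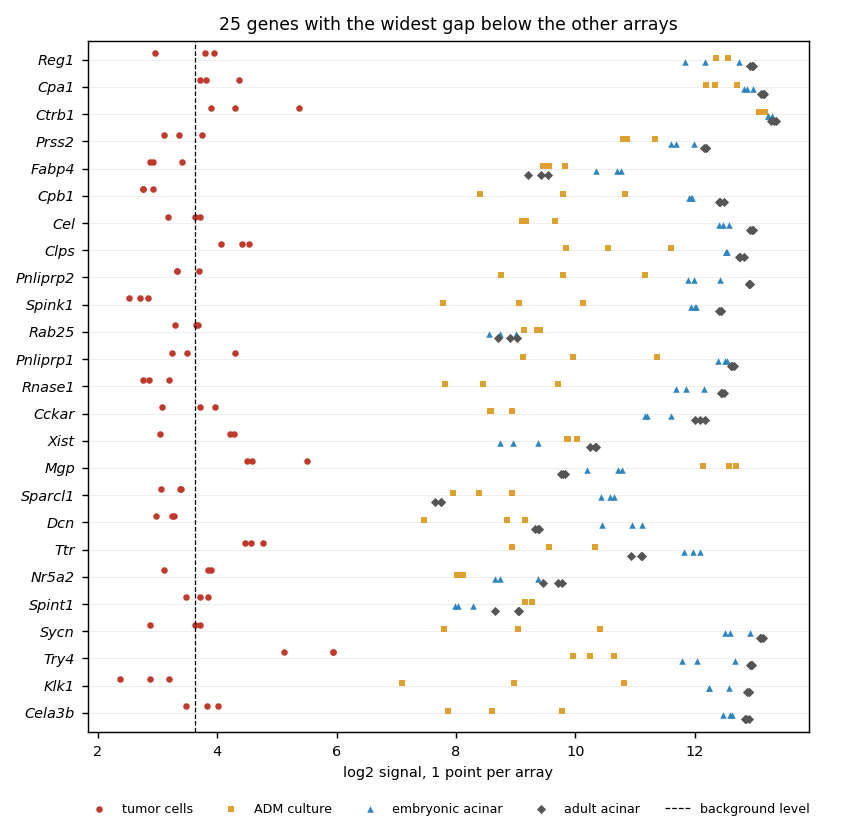
Log2 signal on each of the 12 arrays for the 25 named genes with the widest gap below the other arrays, in order of gap; symbols stand for the groups and the dashed line for the background level of 3.62. Tumor arrays lie to the left of all others in every line, and for enzymes such as Klk1 and Sycn the ADM arrays spread between them and the acinar arrays.

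The lower set also held 20 genes of epithelial junctions, polarity and identity. Epcam was at 3.65, 3.84 and 3.98 on the tumor arrays, against 8.96, 9.11 and 9.21 in ADM, 8.50, 8.76 and 8.60 in embryonic, and 6.55 to 6.98 in adult cells. It was 38.6-fold lower in tumor cells than in ADM. Rab25, a vesicle GTPase of polarised epithelium, was at 3.64, 3.29 and 3.68 in tumor cells, against 9.36, 9.41 and 9.14 in ADM, 8.55, 9.01 and 8.73 in embryonic, and 8.91, 8.71 and 9.02 in adult cells. The tumor arrays lay at or near background and clear of all other arrays for both genes.

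The same group held enzymes and regulators of epithelia. The membrane protease St14 was at 3.95, 4.35 and 3.95 in tumor cells, against 6.96 or more, and Spint1, its inhibitor, at 3.47, 3.71 and 3.85, against 7.98 or more. Esrp1, which sets epithelial splicing, was at 3.88, 3.40 and 3.30, against 7.19 or more. Its paralog Esrp2, chosen later, stayed well above background, at 6.07, 6.07 and 5.78, and was outside the set with a gap of 0.09. The Esrp2 difference from embryonic cells was -0.42 ± 0.194 (adjusted p = 0.143). Grhl2, a transcription factor that maintains epithelial junction genes, was at 3.46, 3.74 and 3.88, against 4.92 or more. The tight junction gene Cldn7 was at 3.46, 3.99 and 2.73, against 6.99 or more, and the desmosome gene Dsc2 at 4.05, 4.88 and 4.66, against 6.25 or more. Of 27 ductal and simple epithelial markers, 6 were in the lower set, and of the other 21 a further 3 passed the test downward and 1, Car2, upward. The keratins and Cdh1 were on neither side, as given above for Krt19 and Cdh1. Of the 20 genes of the group, 5 were called higher and 3 lower in ADM than in adult cells (12.5% and 4.22% of all genes). Epcam exceeded adult cells by 2.28 ± 0.160 (adjusted p = 2.37e-07), Cldn7 by 1.97 ± 0.288 (adjusted p = 0.000136), St14 by 1.69 ± 0.201 (adjusted p = 2.39e-05) and Dsc2 by 1.75 ± 0.262 (adjusted p = 0.00016). Prss8, a membrane protease, was 1.68 ± 0.245 lower in ADM than in adult cells (adjusted p = 0.000131), and Hook1, a microtubule adaptor, 1.87 ± 0.176 lower (adjusted p = 3.1e-06).

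**Figure D4:**
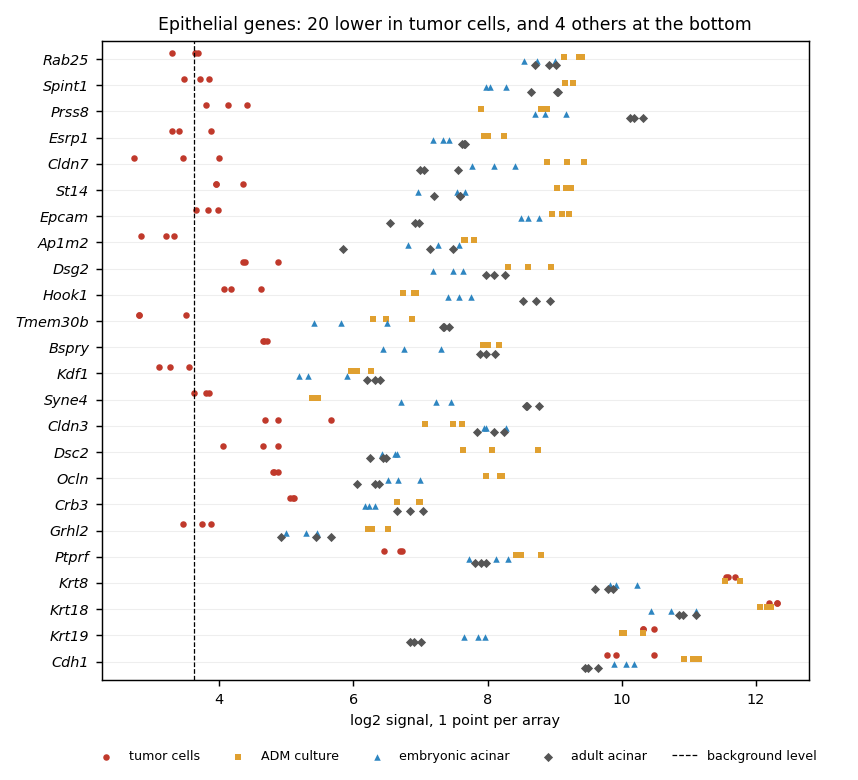
Log2 signal on each of the 12 arrays for the 20 epithelial genes of the lower set, in order of gap, and for Krt8, Krt18, Krt19 and Cdh1; symbols stand for the groups and the dashed line for the background level of 3.62. Tumor arrays lie to the left of all others for the 20 genes, and at or among the highest arrays for the 3 keratins.

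Promoters of the epithelial genes were searched for the E-box CACCTG, which repressors of the ZEB and SNAI families bind, on both strands of 300 bases around the start (RefSeq, build GRCm38.p6). The motif was chosen after the genes were known. Of the 14 epithelial genes with a promoter listed, 11 held it (78.6%), against 19.6% of 16990 promoters of all measured genes. It was in 43.1% of 153 promoters of the lower set, 22.9% of 83 of the higher set and 61.9% of 21 of the acinar enzymes and secreted proteins, so it was not limited to the epithelial genes. Median GC content was 62.7% in the epithelial, 49% in the acinar enzyme and 56.3% in all promoters, and the shares were not adjusted for it. The first listed window of Spint1, Cldn7 and Ptprf did not hold these letters. A TGANTCA motif, bound by AP-1, was in 12% of promoters of the higher set and 7.39% of all. These matches describe the letters only, and binding was not measured. Windows are shown for Epcam (chr17:87635729-87636028, plus strand), Rab25 (chr3:88548230-88548529, minus strand), Ap1m2, an adaptor subunit of epithelial sorting (chr9:21312284-21312583, minus strand), and Crb3, a polarity protein (chr17:57061951-57062250, plus strand), because they hold 2 to 4 matches each. Tmem30b also held 4 matches, and its window is not shown. Hook1, Bspry, Kdf1, Syne4, Cldn3 and Ocln held 1 match each. Capitals mark CACCTG or its reverse complement CAGGTG. Ap1m2 and Crb3 were picked for those matches, with tumor arrays at 3.32 or less and 5.12 or less, and other arrays at no less than 5.84 and 6.17.
Epcam: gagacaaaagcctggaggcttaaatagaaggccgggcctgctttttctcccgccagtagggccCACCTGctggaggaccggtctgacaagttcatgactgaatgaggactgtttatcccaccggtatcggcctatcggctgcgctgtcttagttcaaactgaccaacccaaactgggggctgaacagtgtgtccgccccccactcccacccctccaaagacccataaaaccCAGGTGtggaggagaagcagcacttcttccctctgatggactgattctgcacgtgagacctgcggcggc
Rab25: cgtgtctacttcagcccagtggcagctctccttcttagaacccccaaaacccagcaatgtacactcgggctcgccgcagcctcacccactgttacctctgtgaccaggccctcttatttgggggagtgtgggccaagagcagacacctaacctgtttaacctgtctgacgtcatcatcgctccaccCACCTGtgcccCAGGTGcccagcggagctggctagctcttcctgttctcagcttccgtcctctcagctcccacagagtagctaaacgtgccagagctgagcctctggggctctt
Ap1m2: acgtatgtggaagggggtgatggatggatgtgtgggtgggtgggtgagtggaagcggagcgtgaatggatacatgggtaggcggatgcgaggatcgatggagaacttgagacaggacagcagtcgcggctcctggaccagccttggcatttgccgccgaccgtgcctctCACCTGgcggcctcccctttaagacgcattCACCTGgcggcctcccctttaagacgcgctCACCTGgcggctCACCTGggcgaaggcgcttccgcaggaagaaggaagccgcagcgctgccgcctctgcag
Crb3: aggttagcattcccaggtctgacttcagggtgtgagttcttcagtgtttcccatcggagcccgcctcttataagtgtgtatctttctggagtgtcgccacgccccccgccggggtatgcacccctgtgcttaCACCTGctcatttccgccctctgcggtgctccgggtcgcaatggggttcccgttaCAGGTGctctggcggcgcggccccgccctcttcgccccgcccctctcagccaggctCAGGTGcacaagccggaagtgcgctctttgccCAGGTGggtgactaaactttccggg

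Genes of cells other than acinar or tumor cells made up further groups of the lower set. Of 15 endothelial markers measured, 6 were in the set and 1 of the other 9 passed the test downward. Cdh5, the cadherin of endothelial junctions, was at 3.79, 3.84 and 3.93 on the tumor arrays, against 7.32, 7.60 and 7.05 in ADM, 10.05, 10.05 and 10.07 in embryonic, and 7.71, 7.20 and 7.64 in adult cells. The summed linear signal of the endothelial list was 318 to 383 in tumor cells, against 914 to 1050 in ADM, 2920 to 3090 in embryonic and 782 to 889 in adult cells. Fabp4, a fatty acid-binding protein of capillaries and fat cells, was at 3.41, 2.93 and 2.88 in tumor cells and at 9.20 or more elsewhere.

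Of 20 fibroblast and stellate cell markers, 2 were in the lower set and a further 4 of the other 18 passed the test downward. Of 43 collagens and matrix proteins 5 were in the set and a further 3 of the other 38 passed downward. Dcn, a proteoglycan of fibroblasts, was at 2.98, 3.27 and 3.25 in tumor cells, against 9.15, 7.46 and 8.86 in ADM, 11.12, 10.45 and 10.94 in embryonic, and 9.37, 9.33 and 9.39 in adult cells. Col1a2, a chain of type I collagen, was at 3.13, 2.87 and 2.58 in tumor cells, against 9.55 or more in ADM and embryonic cells and 6.24 or more in adult cells. A further Col1a2 probe set gave means of 4.07 in tumor, 7.70 in ADM, 8.74 in embryonic and 4.19 in adult cells, so its tumor and adult arrays overlapped. The fibroblast list summed to 262 to 301 in tumor cells, against 1570 to 3500 in ADM, 2710 to 5000 in embryonic and 893 to 988 in adult cells.

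Islet genes were 9 of the lower set. Chga, of hormone granules, was at 4.79, 4.26 and 4.10 in tumor cells, against 7.16, 6.65 and 7.37 in ADM, 9.11, 8.89 and 9.27 in embryonic, and 7.09, 6.84 and 6.22 in adult cells. The endocrine list of 18 markers had 5 in the set and 1 of the other 13 called downward, and summed to 268 to 380 in tumor cells, against 1070 to 1940 in ADM, 10700 to 13400 in embryonic and 2170 to 3150 in adult cells. The macrophage lysozyme Lyz2 was at 3.19, 3.24 and 4.42, against 7.78 or more. Not every marker of these groups was at background in the tumor cells: Gcg, the glucagon gene of alpha cells, was at 4.88, 6.76 and 6.54 there, against 8.66 or more elsewhere. The part that other cells in the acinar and ADM samples had in the difference was not tested.

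Imprinted genes were in the lower set with 3 of 23 measured imprinted and oncofetal genes, and of the other 20 a further 2 passed the test upward and 1 downward. Grb10, an adaptor that restrains growth factor receptors, was at 3.70, 3.45 and 3.97 on the tumor arrays, against 7.39, 7.34 and 7.18 in ADM, 9.48, 9.54 and 9.55 in embryonic, and 7.25, 7.18 and 6.84 in adult cells. Peg3, a paternally expressed zinc finger gene, was at 3.76, 3.50 and 3.29 in tumor cells, against 5.91 or more. The amino acid transporter Slc38a4 was at 3.12, 3.32 and 3.32, against 5.24 or more. Embryonic cells had the highest mean for all 3, with Peg3 4.42 above adult cells on the log2 scale (adjusted p = 5.08e-09). Metallothioneins, which bind zinc and copper, were lower but not lost, with Mt2 at 8.89, 8.78 and 8.87 in tumor cells, against 11.27 or more.

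Xist, the RNA that coats the inactive X chromosome in female cells, was at 4.28, 3.04 and 4.22 on the tumor arrays, against 9.86, 9.88 and 10.02 in ADM, 9.37, 8.95 and 8.73 in embryonic, and 10.33, 10.25 and 10.34 in adult cells. The Y-linked gene Eif2s3y, chosen after the Xist values were seen, was at 7.07, 7.22 and 6.72 in tumor cells and 6.48, 5.83 and 6.11 in embryonic cells, against 3.52 or less in ADM and 4.37 or less in adult cells. Kdm5d and Uty, also Y-linked, went the same way. Kdm5d was at 6.09, 6.09 and 5.87 in tumor cells and 4.98, 4.29 and 5.72 in embryonic cells, against 2.97 or less elsewhere. Uty was at 5.46, 4.76 and 4.95 in tumor cells and 4.31, 4.18 and 4.08 in embryonic cells, against 3.27 or less elsewhere. Tumor arrays thus had Y-linked signal and little Xist, and embryonic arrays had both. The labels give no sex, and the part that sex had in the levels of these genes was not tested.

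Mtap, an enzyme of methionine salvage on chromosome 4, was at 3.66, 2.96 and 3.14 in tumor cells, against 7.76, 7.92 and 7.55 in ADM, 6.68, 6.41 and 6.39 in embryonic, and 6.53, 5.85 and 6.36 in adult cells. It lay at or near background on all tumor arrays and at least 2.19 above them on every other array. Mtap neighbours the cell cycle inhibitor genes Cdkn2a and Cdkn2b, which are often deleted together with it in pancreatic cancer. Cdkn2a was at 3.40, 3.61 and 3.78 in tumor cells, against 4.43, 4.35 and 4.91 in ADM and 3.37 to 3.94 in the fresh acinar cells, so it was near background in all groups but ADM. Cdkn2b was at 4.23, 4.30 and 4.29 in tumor cells, against 6.37, 7.08 and 6.83 in ADM and 4.37 to 4.91 in embryonic and adult cells. Cdkn2b was 2.49 ± 0.191 lower than in ADM (adjusted p = 1.06e-06), and its difference from embryonic cells was -0.31 ± 0.191 (adjusted p = 0.288). DNA copies were not measured.

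The members were also compared among the 9 arrays without tumor cells. The rule used the highest or the lowest of these arrays, so it bears on the levels there, and the shares below are a description. Between ADM and adult cells, 49 of the 101 genes of the higher set were called higher and 0 lower (48.5% in either direction). Over all genes 12.5% were called higher, 4.22% lower and 16.7% in either direction. Between embryonic and adult cells 30 were called higher and 1 lower (30.7%), against 10% and 2.61% of all genes (12.6% in either direction). Between ADM and embryonic cells 21 were called higher and 1 lower (21.8%), against 4.55% and 4.91% of all genes (9.46%). These contrasts share arrays in pairs. ADM was the group with the nearest mean for 63 of the 101 genes, embryonic cells for 26 and adult cells for 12. At the other extreme, 17 genes, Tigit, Il5ra and Ptpn22 among them, had means at or under background in all 3 other groups. Tumor cells alone were grown in standard medium, and ADM was the only other cultured group. Culture and cell type thus cannot be told apart in how near the groups lay to tumor cells.

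In the lower set, ADM was called lower than adult cells for 81 genes and higher for 28 (51.9% in all). ADM was called lower than embryonic cells for 79 and higher for 22 (48.1%), and embryonic cells were called higher than adult cells for 48 and lower for 48 (45.7%). In all, 157 of the 210 lower genes and 55 of the 101 higher genes were called in at least 1 of the 3 contrasts (74.8% and 54.5%), against 22.6% of all genes. All 210 lower genes had means above background in all 3 of these groups, as did 62 of the higher genes, of which 40 were called (64.5%). Of the 11441 genes in all with such means, 36.1% were called in at least 1 contrast, 28.3% between ADM and adult cells, 13.6% between ADM and embryonic cells and 19.8% between embryonic and adult cells. The median level of the lower set was 3.76 in tumor cells, against 7.24 in ADM, 8.06 in embryonic and 7.89 in adult cells, and 84 of the 210 had a tumor mean at or under background. The median level of the higher set was 7.57 in tumor cells, against 5.24 in ADM, 4.64 in embryonic and 3.92 in adult cells.

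Both sets shade into genes just short of the rule. Foxm1, a factor of mitosis, and Anln, of cell cleavage, entered the higher set with a gap of 1.00, and Abcb1b and Nes, an intermediate filament of progenitors, missed it at 0.99. In the lower set Ptprf and the kallikrein Klk1b5 entered at 1.00, and Col6a1, a collagen, and Reps2, an endocytic adaptor, missed it at 0.99. The gap was at least 2 for 29 higher and 93 lower genes and at least 4 for 2 higher and 24 lower genes. The same rule gave 111 higher and 3 lower genes for ADM, 268 and 4 for embryonic cells and 132 and 426 for adult cells. Of 20 members with a further probe set, 4 had tumor means in another order there: Sort1, Fam174b, Prelp and Cyyr1. The same order of means is a weaker mark than the gap rule. Only Gsdmd, Bgn, Prss23 and Smpdl3a met the gap of 1 on the further probe set too. For several others, Dsg2 (gap -0.12) and Tmc4 (gap -0.04) among them, tumor arrays overlapped the other arrays there.

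The size of the higher set hung on tumor replicate 1. Without it, 395 genes lay at least 1 above the other arrays on tumor replicates 2 and 3, among them the 101. On replicate 1, 328 of the 395 were still above every other array and 67 fell among them. Without replicate 2 the count was 124 and without replicate 3 it was 117. For the lower set the counts were 297, 227 and 227. Genes that only replicates 2 and 3 had high included Clca3b, at 2.99, 9.80 and 10.32, with the other arrays at 4.36 or less. Csf3, the granulocyte growth factor, was at 3.19, 7.84 and 8.29, with the other arrays at 3.66 or less. Low on those 2 arrays were Btg2, an antiproliferative gene, at 9.58, 6.78 and 6.90, against 9.46 or more, and Sox9, a factor of duct cells, at 8.04, 5.54 and 6.07, against 7.65 or more. The tumor samples thus differed among themselves in genes whose levels on replicate 1 lay within or beside those of other groups.

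**Figure D5:**
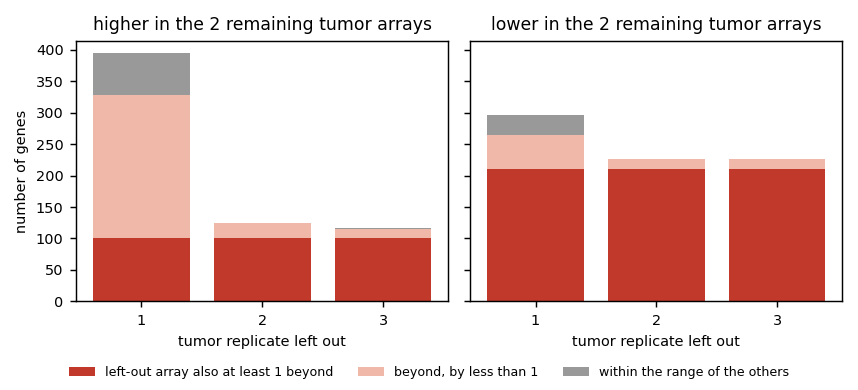
Number of genes (vertical axis) that lay at least 1 log2 unit above (left) or below (right) the 9 other arrays on 2 tumor arrays, by the tumor replicate left out; colours show where the left-out array lay. The bar for replicate 1 on the left reaches 395, against 124 and 117, and includes 67 genes for which replicate 1 lay within the range of the other arrays.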

How the data were processed

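The 12 samples were hybridised to Affymetrix mouse arrays, 1 colour each. The deposited values are log2 signal per probe set, processed by the authors. Software, normalization and summary method are not given in the sources used here, and the base of the logarithm was read from the range, 1.56 to 13.67. Each array held 41345 probe sets, of which 23521 carried 1 gene symbol in the platform annotation, 1814 several and 16010 none. A gene with more than 1 (1082 genes) was read from the brightest, by its mean on the 12 arrays. A fit with limma 3.58.1 (R 4.3.3; lmFit, contrasts.fit and eBayes) gave each group a mean, with no block. Genes were called at a Benjamini-Hochberg adjusted p under 0.05 over all genes and an absolute log2 difference of at least 1, two-sided, and "against each group" means all 3 tumor contrasts. Values after ± are SE. The procedure was run on simulated data with planted tumor differences, independent noise and no differences among the other groups. Such data check the calculation and cannot show how it performs on these samples. Same-numbered samples of different groups did not deviate together: correlations ran from -0.088 to 0.227, with 1 of 18 pairs over 0.1. The members, 36 gene lists and motifs were chosen with earlier results of these data known. Named genes were the 25 with the widest gap each way, leaving out predicted genes and receptor families, up to 6 members per list, those nearest the threshold, gene-order neighbours, members with discordant probe sets and a fixed set of markers; others are named as chosen later. Groups of genes by role were assigned after the members were known. With 3 arrays a group, their number limits the precision.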

Additional observations from a re-analysis of the deposited data

Results flagged for a closer look

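Probe sets without a single gene symbol were outside the comparisons above, and some of them met the same rule. Of 1814 probe sets with several symbols, 4 were higher and 14 lower on the tumor arrays than on all 9 others by at least 1. Some of these list the same genes, amylase and Tmem254 genes among the lower and Prl2c genes among the higher. The counts are thus of probe sets and not of separate genes. Of 16010 with no symbol here, 3 were higher and 40 lower. They were singled out because they lay outside the gene comparisons; some list a gene of the report among their several symbols, and no value is assigned to a gene from them.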

How the results depend on the processing

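At a gap of 0.5 the rule gave 377 higher and 388 lower genes, and at a gap of 2 it gave 29 and 93. Centring on 11 housekeeping genes, whose median lay 0.03, 0.58 and 0.93 higher in tumor cells than in ADM, embryonic and adult cells, gave 63 higher and 257 lower genes, against 101 and 210. It gave 251 higher and 571 lower calls against each group, against 468 and 415. Genes with a mean of at least 5 alone gave 63 higher genes. Leaving out 1 array at a time, the higher set held 101 to 395 genes and the lower set 211 to 297. Calls against each group ran from 367 to 730 upward and from 375 to 483 downward, and 204 to 213 of the 311 genes were called between the other groups, against 212. The highest upward counts, 395 and 730, came without tumor replicate 1. All other settings stayed within 1.5 times: quantile and 75th percentile scaling, values raised to the background level, probe set means and array weights. Under quantile, housekeeping and 75th percentile scaling all 101 and 210 genes stayed beyond the other arrays. Over all genes the median difference of tumor cells was 0.06 from ADM, 0.07 from embryonic and -0.09 from adult cells. Among genes with both group means over 6 it was 0.12, 0.27 and 0.31. The replicate block gave 461 higher and 411 lower calls and 211 of the 311, within 1.5 times as well, and the samples share only a number. Dim genes are limited by background: 84 of the lower set have only a bound.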

Other observations

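Some genes passed the test against each other group without meeting the gap rule. Pdx1, the factor of pancreatic progenitors and beta cells, was at 6.55, 6.56 and 6.25 on the tumor arrays, against 4.37, 4.56 and 4.47 in ADM, 5.25, 5.73 and 5.36 in embryonic and 5.03, 5.10 and 4.48 in adult cells, 1.99 ± 0.191 above ADM (limma, adjusted p = 8.19e-06). Cd14, a coreceptor for bacterial lipopolysaccharide, was at 9.93, 9.37 and 9.53 in tumor cells, against 8.26, 7.64 and 8.43 in ADM and 4.82 or less in the fresh acinar cells. Of 29 foregut and progenitor factors, Gata5 was in the higher set, and of the other 28 a further 2, Pdx1 and Cdx2, passed upward and 1 downward. Of 36 Hox genes 0 passed in either direction, as did 0 of 18 integrins and 0 of 18 genes of lipid and cholesterol synthesis. Tumor means lay above background for 4 of the Hox genes, 12 of the integrins and 18 of the lipid genes. For genes at background in all groups a difference could not be seen. By position, the median difference between tumor cells and the mean of the others was taken among genes with a mean of at least 5. It was 0.54 on chromosome 6, 0.03 on chromosome 1, 0.04 on chromosome 4, and 0.22 to 0.39 on the other autosomes. Chromosome 6 held 12 genes of the higher set, 0.999% of its genes, against 0.455% of all genes. It held 19 of the lower set, 1.58%, against 0.947%. Ezh2, Mcm2, Foxm1 and Hk2, with gaps of 1.02, 1.09, 1.00 and 1.08, lie on chromosome 6. The part that position had in these gaps was not tested, and DNA copies were not measured.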
